A study of Mus musculus with 6 samples.

Results

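Of 22579 genes in the deposited count table, 56 held reads in every library of the Ddx20 knockout and almost none in the control libraries. They were chosen from the reads themselves, as genes with at most 3 reads over the 3 control libraries together and at least 10 reads in each of the 3 knockout libraries. Dppa3 and Slc7a3 also met these limits and were left out, so that 58 genes passed before that step. The 56 genes are 0.248% of the genes listed. Because the knockout and control reads made the choice, the difference between the groups is given below as a description of these genes and not as a result.

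RNA was counted in 3 libraries of THY1+ spermatogonia from Ddx20 knockout mice, which the labels also call cKO, and in 3 libraries of the same cells from control littermates, all at day 4. Each library was made by SMART-seq2 from about 1000 cells. The labels name no Cre line, no deleted exon and no cell type in which the gene was lost, and they do not say whether a library came from 1 animal or from several. Any p-value below therefore measures the spread between these libraries, which may be technical.

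DDX20 is a DEAD-box helicase found in the SMN complex, which loads Sm proteins onto the small nuclear RNAs of the spliceosome. THY1 is a surface protein by which undifferentiated spermatogonia, the stem and progenitor cells of spermatogenesis, are enriched from the testis. In the days after birth the seminiferous tubules hold spermatogonia and Sertoli cells but no spermatids, and the testis around them holds Leydig, myoid, endothelial and blood cells. Genes for the acrosome and the flagellum, such as Crisp2, are known for expression after meiosis, while Sult1e1, an oestrogen sulfotransferase, is known from liver and from adult Leydig cells.

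The promoters of 3 of the genes are printed because these genes held the most knockout reads of 3 tissue groups described below and differ widely in CpG content. Each run is the 250 bases before the start that RefSeq gives on GRCm38.p6, written 5′ to 3′ on the strand of the gene, with every CG dinucleotide in capitals. That of Sult1e1 lies at chr5:87591612-87591861 on the minus strand, that of Crisp2 at chr17:40794147-40794396 on the minus strand and that of Fgf5, a growth factor of the epiblast and the hair follicle, at chr5:98253934-98254183 on the plus strand.
Sult1e1: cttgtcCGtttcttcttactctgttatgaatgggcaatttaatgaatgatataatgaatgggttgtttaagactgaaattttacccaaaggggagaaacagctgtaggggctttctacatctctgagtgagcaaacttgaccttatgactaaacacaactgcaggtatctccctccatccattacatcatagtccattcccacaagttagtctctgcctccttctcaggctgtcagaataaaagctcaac
Crisp2: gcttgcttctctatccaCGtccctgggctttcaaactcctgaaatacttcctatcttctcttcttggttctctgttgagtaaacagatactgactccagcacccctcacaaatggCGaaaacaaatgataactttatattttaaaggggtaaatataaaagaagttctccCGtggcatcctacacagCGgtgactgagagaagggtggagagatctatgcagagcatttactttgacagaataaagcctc
Fgf5: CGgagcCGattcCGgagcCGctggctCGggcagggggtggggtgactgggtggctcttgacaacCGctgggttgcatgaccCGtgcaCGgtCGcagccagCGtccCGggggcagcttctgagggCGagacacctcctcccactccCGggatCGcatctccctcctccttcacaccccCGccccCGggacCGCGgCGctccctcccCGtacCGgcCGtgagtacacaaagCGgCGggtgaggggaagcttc
The Sult1e1 window held 1 CG, the Crisp2 window 4 and the Fgf5 window 24, which was the highest number among the 41 genes with a promoter in the RefSeq table. The 41 are 73.2% of the 56 genes, under the 80% set for a comparison with other promoters, so that comparison is void. The letters TATAAA, searched on both strands, stand in the Crisp2 window and in neither of the other windows. They stand in 9.18% of 15843 promoter windows of the same length. The palindrome CACGTG, which is found in 7.42% of the 15843 windows, is in none of the 3 windows shown. The RefSeq start of Crisp2 lies 12857 bases from the gene start in GENCODE, so this window belongs to 1 of several possible starts.

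The libraries held 11656130, 11904762 and 12497967 counted reads in the knockouts and 8428871, 11035515 and 11893287 in the controls. Ddx20 had 128, 168 and 119 reads in the knockout libraries and 668, 383 and 531 in the control libraries. That is 12.6 ± 2.35 CPM (CPM, reads scaled to library size after TMM scaling; SD, n = 3) in knockouts and 47.0 ± 14.8 CPM (SD, n = 3) in controls, with no overlap. By the quasi-likelihood test of edgeR the difference was -1.89 ± 0.26 on the log2 scale (SE; adjusted p 0.0118). The adjusted p was 0.0554 without knockout 1, 0.0620 without knockout 3 and 0.0526 with knockout 1 and 2 counted together as 1 library. Of genes known from undifferentiated and other germ cells, Thy1 had 64 to 79 reads in knockouts and 73 to 143 in controls, Zbtb16 198 to 221 in knockouts and 329 to 647 in controls, and the germ cell helicase Ddx4 4864 to 5400 in knockouts and 3302 to 5166 in controls. The last 3 genes were chosen after their values were seen. Mitochondrially encoded genes took 19.8% to 20.1% of reads in knockouts and 14.0% to 16.9% in controls. Knockout libraries had reads from more genes. After thinning every library to 8428871 reads, 18803 to 19004 genes had a read in knockouts and 16822 to 17873 in controls.

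Knockout 1 and knockout 2 stood apart from the rest as a near-identical pair. A chi-square statistic of their reads averaged 1.78 over genes. Noise of sampling would give 1, and each of the other 14 pairs of libraries gave 11.96 or more. Genes with at least 10 reads in knockout 1 and 0 in knockout 2 numbered 3, and as many showed the opposite pattern. Between knockout 1 and knockout 3 the same counts were 250 and 293. The labels list the pair as separate samples and do not say whether they come from separate animals, so the results below are also given with it counted as 1 library.

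The rule was passed step by step in unequal numbers by the 3 knockout libraries. Of 4117 genes with at most 3 control reads, 314 had at least 10 reads in knockout 1, 319 in knockout 2 and 280 in knockout 3. Knockout 1 and 2 shared 212 of these genes, and 71 of the 212 had no read in knockout 3. Knockout 1 and 3 shared 66, knockout 2 and 3 shared 67, and none of these lacked a read in the remaining knockout. All 3 libraries shared the 56. With knockout 1 and 2 counted as 1 library, by their mean, all 56 genes pass by construction. At least 10 reads in both libraries gives a mean of at least 10. The rule then gave 69 genes. Without knockout 3 it gave 212, and with only 2 control libraries to stay under the limit it gave 107 without control 1, 149 without control 2 and 136 without control 3.

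The same limits with the groups exchanged gave 0 genes. Of 3075 genes with at most 3 knockout reads, 136 had at least 10 reads in control 1, 86 in control 2 and 149 in control 3. The controls shared these genes less widely, with 6 in common between control 1 and 2, 15 between control 1 and 3 and 13 between control 2 and 3. Genes close to the limits existed all the same. Kcns2 had 3, 1 and 0 reads in knockouts and 22, 19 and 15 in controls, Olfr455 had 3, 1 and 0 in knockouts and 12, 13 and 22 in controls, and E130310I04Rik had 1, 3 and 1 in knockouts and 14, 18 and 21 in controls. These 3 were chosen after their values were seen. With knockout 1 and 2 counted as 1 library the exchanged rule gave 4 genes, and without knockout 3 it gave 22.

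Other limits changed both counts. With at least 5 reads in each library of the high group and 3 or fewer in the low group, 187 genes were high in knockouts and 13 high in controls. With up to 20 reads allowed in the low group and at least 10 in each library of the high group, the counts were 340 high in knockouts and 50 high in controls. Thinned to equal depth, 39 genes met the rule, 31 of them among the 56, and 3 met the exchanged rule. The part of the pair of knockout libraries and of the difference in depth in these counts was not tested beyond these values.

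**Figure D1:**
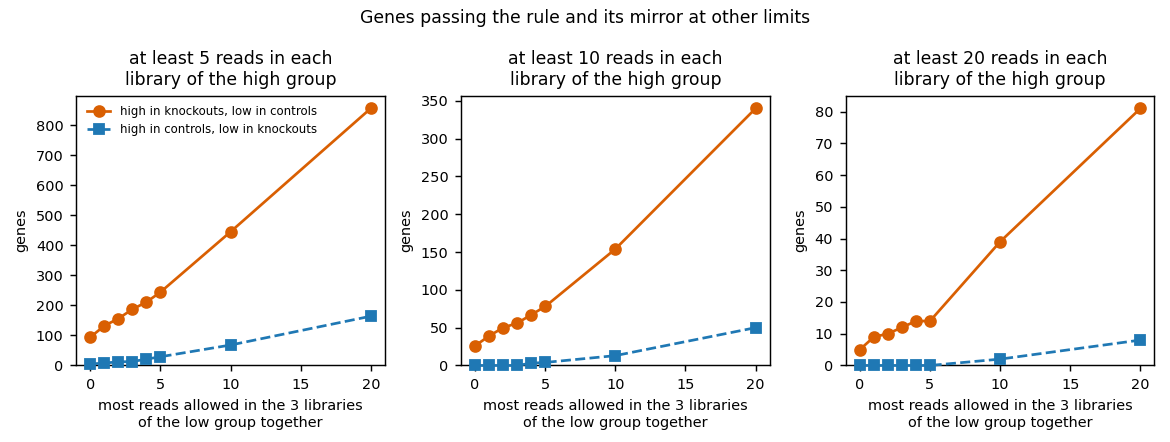
Number of genes (y axis) that pass the rule in the knockouts (circles) and with the groups exchanged (squares), against the most reads allowed over the 3 libraries of the low group (x axis), for 3 minimum read numbers in the high group. At each of the limits drawn more genes were high in knockouts, and at 10 reads with 3 allowed the counts were 56 in knockouts and 0 in controls.

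The limits passed through a dense range of low counts. Just inside were Fam155a, a subunit of the NALCN sodium leak channel, with 11, 10 and 12 reads in knockouts and 0, 2 and 0 in controls, the cytosolic nucleotidase gene Nt5c1b with 13, 10 and 17 in knockouts and 0, 1 and 1 in controls, and the T cell co-receptor gene Cd8b1 with 11, 19 and 10 in knockouts and 1, 0 and 1 in controls. Another 14 genes missed by 1 knockout read, among them Adcyap1, for the neuropeptide PACAP, with 43, 55 and 9 reads in knockouts and 0 in every control, the sperm tail gene Spag6l with 23, 31 and 9 in knockouts and 3, 0 and 0 in controls, and Zscan4c, known from 2-cell embryos, with 15, 22 and 9 in knockouts and 0 in every control. A further 11 missed by 1 control read, among them the aldehyde dehydrogenase gene Aldh3a1, with 73, 65 and 51 reads in knockouts and 0, 1 and 3 in controls. Aldh3a1 thus held more knockout reads than most of the genes inside the limit.

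All 56 genes were rare. Summed over the knockouts they held 33 to 194 reads each, with a median of 60, and 32 of the 56 stayed under 30 reads in every library. Mean abundance in the knockouts was 0.915 to 5.40 CPM on the scale of total counts, with a median of 1.66 CPM, and 39 genes were under 2 CPM. Together the genes took 1247, 1298 and 1252 reads in the knockouts, which is 107, 109.03 and 100.2 CPM, against 14, 20 and 19 reads in the controls, which is 1.66, 1.81 and 1.60 CPM. Of the 56, 26 had no control read, 13 had 1, 11 had 2 and 6 had 3. In bulk libraries of this kind, fewer cells that express a gene and less of its RNA in each cell cannot be told apart.

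**Figure D2:**
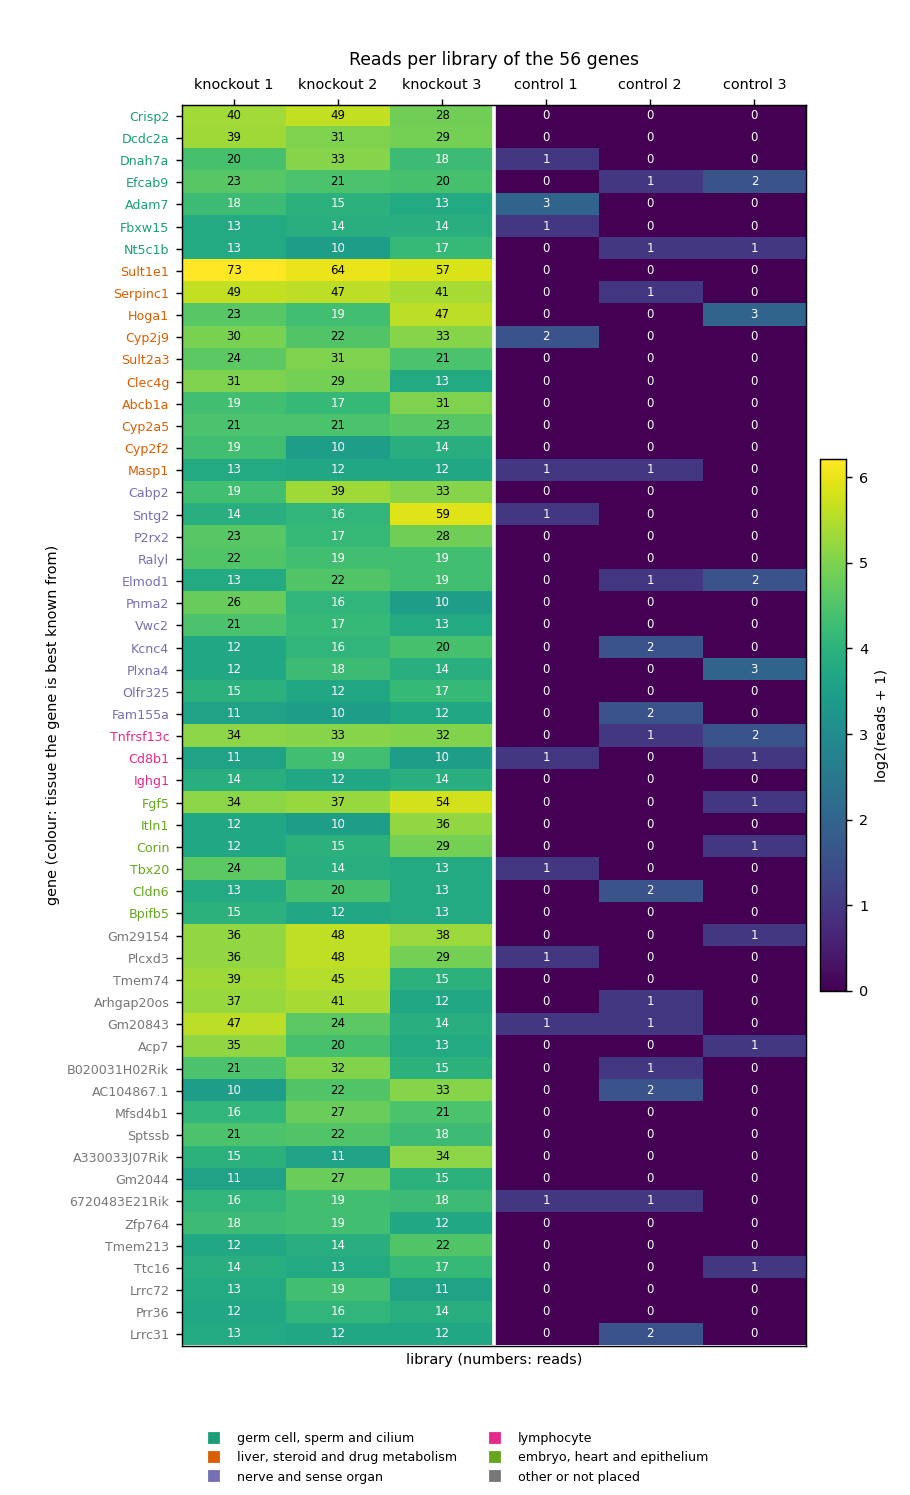
Reads of each of the 56 genes (rows) in the 3 knockout and the 3 control libraries (columns), with colour giving log2(reads + 1) and name colour the tissue group. Knockout values run from 10 to 73 reads and control values from 0 to 3.

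Each gene was sorted by the tissue it is best known from. The sorting was done by hand from general knowledge after the members were known. It placed 7 genes with germ cells, sperm and cilia, 10 with liver, steroid and drug metabolism, 11 with nerve and sense organs, 3 with lymphocytes and 6 with embryo, heart and epithelium, and it left 19 as other or not placed. No single tissue held most of the genes.

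The germ cell, sperm and cilium group was led by Crisp2, a cysteine-rich secretory protein of the acrosome and the sperm tail. Crisp2 had 40, 49 and 28 reads in the knockouts and 0 in every control. The values in the knockouts averaged 3.26 ± 0.949 CPM (SD, n = 3), and the total was at least 33.9-fold higher than the floor of 3 reads over the control group. Dcdc2a, a doublecortin-domain protein that binds microtubules and is found in cilia, had 39, 31 and 29 reads in knockouts and 0 in every control. Dnah7a, a heavy chain of axonemal dynein, had 20, 33 and 18 reads in knockouts and 1, 0 and 0 in controls. In each of these 3 genes the lowest knockout value belonged to knockout 3. Dnah7b and Dnah7c, relatives of Dnah7a chosen after their values were seen, had control reads and were not called by edgeR. Dnah7b had 22, 35 and 93 reads in knockouts and 76, 6 and 45 in controls. Dnah7c had 12, 15 and 1 in knockouts and 8, 4 and 0 in controls. Whether the counting split reads between these relatives was not tested.

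Efcab9, a calcium sensor of the CatSper channel of the sperm tail, had 23, 21 and 20 reads in knockouts and 0, 1 and 2 in controls, a ratio of 18.6 with a 95% counting interval of 6.07 to 92.3. Adam7, a surface protein of the epididymis and sperm, had 18, 15 and 13 reads in knockouts and 3, 0 and 0 in controls. Of the group, 2 of 7 genes lacked control reads. Abundance per length in the knockouts ran from 0.155 RPKM (reads scaled to exon length and library total) for Dnah7a to 1.71 RPKM for Efcab9. Other CatSper genes, chosen after their values were seen, had mixed values. Catsperb had 13, 6 and 9 reads in knockouts and 0 in every control, and Catsperz had 20, 12 and 15 in knockouts and 14, 2 and 0 in controls. Catsperd had 5, 10 and 10 in knockouts and 28, 26 and 16 in controls, and Catsper4 had 3, 0 and 4 in knockouts and 1, 21 and 0 in controls. Thus Catsperb was higher in each knockout than in each control, Catsperd was lower in each, and the groups overlapped for Catsperz and Catsper4. Catsper1 had 0 reads in every knockout and 3, 0 and 0 in controls, Catsper2 67, 76 and 13 in knockouts and 41, 69 and 55 in controls, and Catsper3 20, 26 and 0 in knockouts and 0, 0 and 2 in controls.

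The liver, steroid and drug metabolism group held the most abundant gene of the 56. Sult1e1 had 73, 64 and 57 reads in knockouts and 0 in every control, at 5.40 ± 0.851 CPM (SD, n = 3) in the knockouts and at least 56.2-fold above the control floor. Its level of 4.35 ± 0.685 RPKM (SD, n = 3) in the knockouts was the highest per length among the 56. Serpinc1, which encodes antithrombin, had 49, 47 and 41 reads in knockouts and 0, 1 and 0 in controls, a ratio of 119 with an interval of 21.03 to 4740. Sult2a3, a hydroxysteroid sulfotransferase, had 24, 31 and 21 reads in knockouts and 0 in every control. In each of the 3 genes knockout 3 had the fewest knockout reads.

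Genes for drug metabolism and transport followed. Cyp2a5, a coumarin hydroxylase of liver, had 21, 21 and 23 reads in knockouts and 0 in every control, and Cyp2f2, a cytochrome P450 of the airway epithelium, had 19, 10 and 14 in knockouts and 0 in every control. Cyp2j9 had 30, 22 and 33 reads in knockouts and 2, 0 and 0 in controls, a ratio of 37.0 with an interval of 9.92 to 310. Abcb1a, a P-glycoprotein drug exporter, had 19, 17 and 31 reads in knockouts and 0 in every control. Clec4g, a lectin of liver sinusoidal endothelium, had 31, 29 and 13 in knockouts and 0 in every control, and Hoga1, a mitochondrial enzyme of hydroxyproline breakdown, had 23, 19 and 47 in knockouts and 0, 0 and 3 in controls. Masp1, a protease of the lectin pathway of complement, had 13, 12 and 12 in knockouts and 1, 1 and 0 in controls, and it was chosen after its values were seen. Of the 10 genes of the group, 6 had no control read.

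Related genes, chosen after their values were seen, had mixed values. Sult1a1, a phenol sulfotransferase, had 237, 236 and 218 reads in knockouts and 60, 51 and 81 in controls, with a log2 fold change of 1.91 and an adjusted p of 0.0111 by edgeR. It was not called without knockout 1, without knockout 2, without knockout 3, or with knockout 1 and 2 taken as 1 library. Sult1c1 had 67, 63 and 142 in knockouts and 64, 49 and 59 in controls. Cyp2a4, close in sequence to Cyp2a5, had 0, 0 and 10 in knockouts and 0, 0 and 11 in controls, and reads of such near copies can have been split by the counting. Albumin, the main hepatocyte protein, had 0, 0 and 4 reads of Alb in knockouts and 0 in every control.

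The nerve and sense organ group was the largest placed group. Cabp2, a calcium-binding protein of hair cells and retina, had 19, 39 and 33 reads in knockouts and 0 in every control, at least 26.4-fold above the floor. P2rx2, an ATP-gated channel, had 23, 17 and 28 in knockouts and 0 in every control. Ralyl, an RNA-binding protein of brain, had 22, 19 and 19 in knockouts and 0 in every control. Ralyl was even over the knockout libraries, P2rx2 was lowest in knockout 2 and Cabp2 in knockout 1. Sntg2, a syntrophin of neurons, had 14, 16 and 59 reads in knockouts and 1, 0 and 0 in controls, and knockout 3 stood far above the other knockouts.

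Elmod1, a GTPase activator needed in hair cells, had 13, 22 and 19 reads in knockouts and 0, 1 and 2 in controls. Kcnc4, a potassium channel subunit, had 12, 16 and 20 in knockouts and 0, 2 and 0 in controls, and Plxna4, a semaphorin receptor, had 12, 18 and 14 in knockouts and 0, 0 and 3 in controls. Pnma2, a Ma antigen of neurons, Vwc2, a secreted antagonist of BMP signalling, and the olfactory receptor Olfr325 each had 10 to 26 reads in the knockouts and 0 in every control. Levels per length in the group ran from 0.0865 RPKM for Plxna4 to 1.86 RPKM for Cabp2. Of 295 other sensory receptor genes listed, 87 had no read in any knockout and 101 had no read in any control.

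In the lymphocyte group, Tnfrsf13c, the receptor for the B cell survival factor BAFF, had 34, 33 and 32 reads in knockouts and 0, 1 and 2 in controls, a ratio of 28.7 with an interval of 9.54 to 142. Cd8b1 encodes the beta chain of CD8, and its partner Cd8a, chosen after its values were seen, had 16, 13 and 0 reads in knockouts and 22, 7 and 22 in controls. Ighg1, an immunoglobulin heavy chain constant gene also chosen after its values were seen, had 14, 12 and 14 in knockouts and 0 in every control. The groups overlapped for Cd8a.

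The embryo, heart and epithelium group was led by Fgf5, with 34, 37 and 54 reads in knockouts and 0, 0 and 1 in controls, a ratio of 109 with an interval of 19.2 to 4328. Itln1, a lectin of the intestinal epithelium, had 12, 10 and 36 in knockouts and 0 in every control. Corin, a heart protease that activates natriuretic peptide, had 12, 15 and 29 in knockouts and 0, 0 and 1 in controls. All 3 were highest in knockout 3. Tbx20, a transcription factor of heart development, had 24, 14 and 13 in knockouts and 1, 0 and 0 in controls, and Cldn6, a claudin of embryonic epithelia, had 13, 20 and 13 in knockouts and 0, 2 and 0 in controls.

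Among the 19 genes not placed, Plcxd3 had 36, 48 and 29 reads in knockouts and 1, 0 and 0 in controls. Tmem74, linked to autophagy, had 39, 45 and 15 in knockouts and 0 in every control. Acp7, an acid phosphatase, had 35, 20 and 13 in knockouts and 0, 0 and 1 in controls. Knockout 3 was the lowest of the knockouts in each of these. Sptssb, a small subunit of serine palmitoyltransferase, had 21, 22 and 18 in knockouts and 0 in every control, and Mfsd4b1, Zfp764, Tmem213, Lrrc72 and Prr36 had 11 to 27 reads in the knockouts and 0 in every control. Ttc16 had 14, 13 and 17 in knockouts and 0, 0 and 1 in controls. The remaining members of the group, mostly clone names and predicted genes, had 10 to 48 reads in each knockout.

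Ratios between the groups had wide counting intervals. For the 30 genes with 1 to 3 control reads the ratio was 12.8 to 119, with a median of 32.2, and the lower ends of the 95% intervals were 3.67 to 21.03, with 23 of the 30 above 5. For the 26 genes with no control read the lower bound against the floor was 11.6-fold to 56.2-fold, with a median of 17.4-fold. Intervals and floors cover counting error only, since PCR copies of 1 molecule can be counted more than once. The rule capped control reads at 3 and asked for at least 10 in each knockout, so it held the ratios up in advance. The intervals do not allow for that choice, and nothing is read from the size of the ratios.

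**Figure D3:**
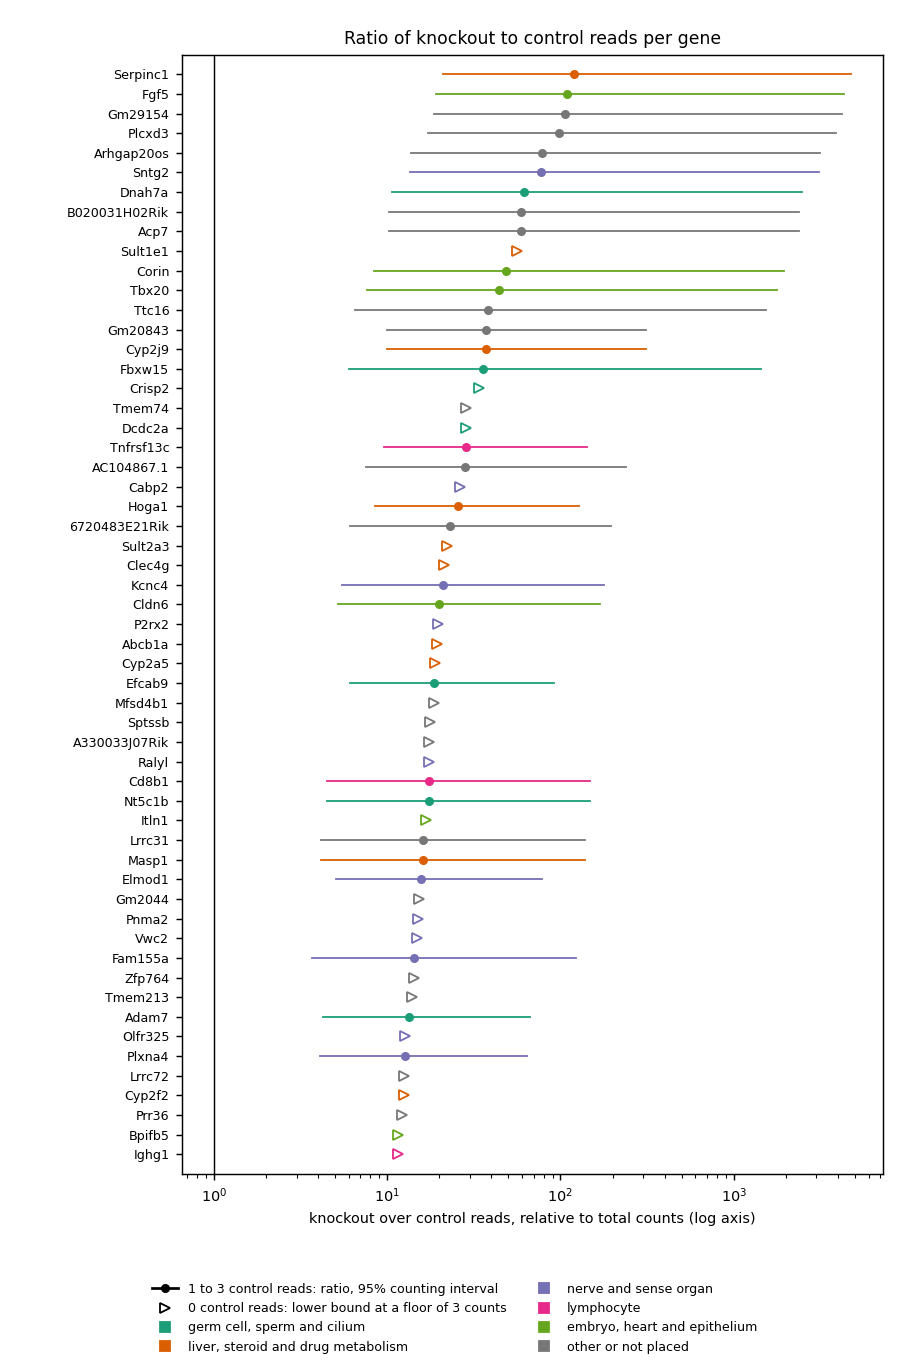
Ratio of knockout to control reads relative to total counts (x axis, log scale) for each gene (y axis), with the 95% counting interval for 30 genes (points with lines) and the lower bound for 26 genes without a control read (open triangles). The highest ratio with an interval is that of Serpinc1 at 119, and the highest lower bound is that of Sult1e1 at 56.2.

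The spread among the knockout libraries is a description only, since the rule asked for at least 10 reads in each of them and so removed genes low in any 1 knockout. The coefficient of variation over the 3 knockouts was 2.12% to 82.3%, with a median of 25.1%, beside 16.0% over all 14766 genes tested and 26.5% over all genes listed. Knockout 3 was above both other knockouts in 17 genes (30.4%), below both in 28 and between them in 11, where genes tested gave 38.1% above and 48.9% below. Knockout 3 was at least 2-fold above the mean of the other two in 5 genes, the largest ratio being 3.71 for Sntg2, and at or under a ratio of 0.5 in 6 genes, the lowest ratio being 0.290. Per degree of freedom, the mean chi-square over the 56 genes was 1.23 between knockout 1 and 2 and 2.65 over all 3 knockouts.

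**Figure D4:**
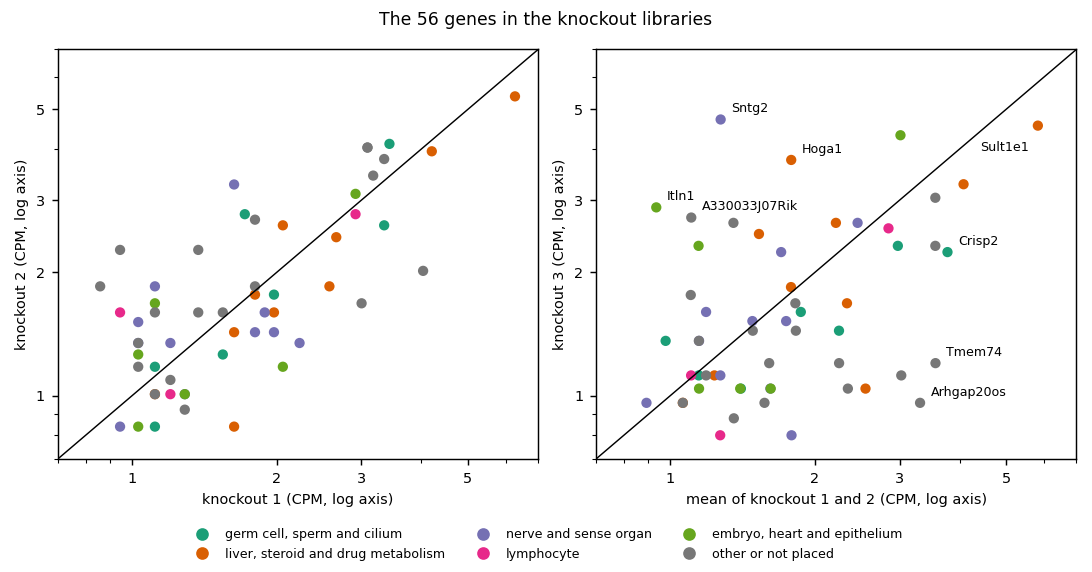
CPM of the 56 genes in knockout 2 against knockout 1 (left) and in knockout 3 against the mean of knockout 1 and 2 (right), on log axes with the line of equality. Points lie nearer to the line on the left, and Sntg2 lies farthest above it on the right, at 3.71 times the mean of the pair.

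The annotation of the genes was mixed. Of the 56, 48 were protein-coding (85.7%, beside 80.6% of genes listed and 94.0% of genes tested), 5 were lincRNAs, 2 were antisense genes and 1 was an immunoglobulin constant gene. Median exon length was 2688 bases, beside 3320.5 for genes listed and 4219 for genes tested, and median GC content was 48.1%, beside 49.0% for genes listed. The genes lay on 20 chromosomes, 6 of them on chromosome 7, and the 2 closest pairs of neighbours were on chromosomes 7 and 8. Cyp2a5 and Cyp2f2 lie 276361 bases apart on chromosome 7, and Clec4g and Prr36 488892 bases apart on chromosome 8.

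Exons of 10 of the 56 genes (17.9%) overlapped a gene on the opposite strand, beside 20.4% of genes listed. Without strand information such reads cannot be told from those of the partner. The partners named here were chosen with their values in view, and those that were tested, Zbtb37, Tor2a, Evi5l, Arhgap20 and Id4, were not called by edgeR. Arhgap20, which overlaps Arhgap20os, had 160, 159 and 135 reads in knockouts and 298, 118 and 98 in controls. Atp6v0a4, which overlaps Tmem213, was not tested and had 2, 0 and 9 in knockouts and 8, 1 and 2 in controls. Zbtb37, which overlaps Serpinc1, had 111, 100 and 108 reads in knockouts and 92, 59 and 172 in controls. Tor2a, which overlaps Ttc16, had 186, 210 and 134 in knockouts and 152, 115 and 221 in controls. Evi5l, which overlaps Prr36, had 37, 46 and 22 in knockouts and 14, 15 and 16 in controls. In Zbtb37, Tor2a, Arhgap20 and Atp6v0a4 the groups overlapped, and in Evi5l they did not. A330033J07Rik overlaps Id4, which had 464, 479 and 349 reads in knockouts and 712, 808 and 578 in controls, lower in each knockout than in each control.

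In the fit over all genes, 50 of the 56 genes passed the filter on low counts and 35 of the 50 were called higher in the knockouts by edgeR. Over all 14766 genes tested the share called higher was 2.03%, and nothing is read from this comparison, since the choice used the same contrast. The share called lower was 2.8% and the share called in either direction 4.83%. The 6 genes that were filtered out are Itln1, Nt5c1b, Cyp2f2, Cd8b1, Pnma2 and Fam155a. With the pair of knockout libraries merged into 1, edgeR called 0 of 54 tested members and 49 had an unadjusted p under 0.05. Among all genes tested in that fit, 1 was called and 2153 had an unadjusted p under 0.05. DESeq2, with all libraries, called 49 of 56, beside 1587 of all 22579 genes. Without knockout 1, without knockout 2 and without knockout 3, edgeR called 0, 1 and 0 members, the 1 being Sult1e1. Over all genes those fits called 5, 10 and 3. Without control 1, control 2 and control 3 edgeR called 23, 6 and 21 members, beside 839, 182 and 816 genes over all. Nothing is read from the member calls of these fits either, for the same reason.

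Marker lists of other cell types and stages, chosen with earlier results of these data known, were read beside the members, and the 56 genes were left out of them. Of 437 listed genes over 14 lists, 107 were tested. Of these, edgeR called 8 higher in the knockouts and 0 lower, with 28 higher and 3 lower at an unadjusted p under 0.05. Over all 14766 genes tested it called 300 higher and 413 lower, and 3561 had an unadjusted p under 0.05. DESeq2 called 16 higher and 2 lower of 182 tested, beside 800 higher and 787 lower over all genes. With the knockout pair merged edgeR called 0 of 116 tested either way, with 20 higher and 3 lower at an unadjusted p under 0.05. Over all genes that fit called 1, and 2153 had an unadjusted p under 0.05. Of the 8 listed genes called in the main fit, Clu was called without knockout 1, Clu and Acta2 without knockout 2 and none without knockout 3. Whether cells of these types contribute to the reads of the 56 genes was not tested.

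For spermatids, 40 of the listed genes other than Crisp2 had reads and 17 were tested. Ropn1l, which encodes a sperm tail protein, was called higher, with 825, 892 and 826 reads in knockouts and 288, 333 and 429 in controls, a log2 fold change of 1.33 by edgeR. The median log2 fold change of the 17 was 0.43, beside 0.01 over all genes tested. With library size alone as the scale it was 0.16, beside -0.26 over all genes. The summed level was 125 to 151 CPM in knockouts and 82.3 to 114 CPM in controls, without overlap. Without Ropn1l it was 58.6 to 77.6 CPM in knockouts and 52.1 to 78.4 CPM in controls, and the groups overlapped. The protamine genes, which mark late spermatids, were at or near 0. Prm1 had 0, 1 and 2 reads in knockouts and 0 in every control, and Prm2 had 0, 0 and 3 in knockouts and 0 in every control. Other spermatid genes had more reads. Tnp1, a transition protein gene, had 44, 39 and 34 in knockouts and 32, 34 and 44 in controls, and the sperm tail gene Odf1 had 76, 58 and 71 in knockouts and 71, 35 and 45 in controls. The acrosome gene Spaca1 had 48, 65 and 91 in knockouts and 79, 68 and 136 in controls. The groups overlapped for each of these 3 genes, which were chosen after their values were seen.

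For adult Leydig cells, the 8 listed genes other than Sult1e1 summed to 54.9 to 67.8 CPM in knockouts and 40.5 to 65.5 CPM in controls, with no gene called. Insl3 had 17, 14 and 22 reads in knockouts and 3, 21 and 6 in controls, and Cyp17a1 had 98, 89 and 106 in knockouts and 45, 37 and 18 in controls. The groups overlapped for Insl3 and not for Cyp17a1. Star had 60, 56 and 88 reads in knockouts and 58, 106 and 137 in controls. Lhcgr had 12, 15 and 5 in knockouts and 30, 6 and 28 in controls, and the groups overlapped for both. Log2 fold changes by edgeR were -0.49 for Star and -0.93 for Lhcgr. They were 0.82 for Insl3, 1.55 for Cyp17a1, 0.28 for Hsd3b1, 1.11 for Cyp11a1 and 0.92 for Ptgds, and Hsd17b3 was not tested. Without Hsd3b1, the gene of the list with the most reads, the sums were 33.9 to 39.0 CPM in knockouts and 26.4 to 29.6 CPM in controls, with no overlap. The hepatocyte list summed to 446 to 463 CPM in knockouts and 331 to 493 CPM in controls, and the neuronal list to 55.1 to 59.3 CPM in knockouts and 45.5 to 88.0 CPM in controls, with no gene called in either. Both ranges overlapped. Without Nefm, the neuronal gene with the most reads, the neuronal sums were 33.0 to 37.8 CPM in knockouts and 12.8 to 25.8 CPM in controls, with no overlap, and the median log2 fold change of the list was 0.71. The hepatocyte sums still overlapped without Afp, at 4.63 to 6.64 CPM in knockouts and 6.47 to 12.2 CPM in controls. The median log2 fold change of the 3 hepatocyte genes tested was -0.40.

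Lists of somatic testis and blood cells held the other called genes. The T lymphocyte list summed to 67.8 to 91.9 CPM in knockouts and 39.2 to 53.7 CPM in controls, and Cd3g, Lck and Trbc2 were called higher. Cd3g had 378, 327 and 238 reads in knockouts and 97, 126 and 198 in controls. The myoid list summed to 146 to 217 CPM in knockouts and 62.6 to 90.0 CPM in controls, and Acta2 and Actg2 were called higher. The Sertoli list summed to 115 to 130 CPM in knockouts and 60.5 to 79.0 CPM in controls, and Clu and Cldn11 were called higher. The median log2 fold change was 0.94 over the T lymphocyte genes tested, 1.21 over the myoid genes and 0.41 over the Sertoli genes. Some genes tested in these lists went the other way without being called. They were Trac at -0.16, Cd8a at -0.74, Lmod1 of the myoid list at -0.72 and Sox9 of the Sertoli list at -0.68. All other genes tested in these lists had positive values. The B lymphocyte list, with no gene called, summed to 17.1 to 20.4 CPM in knockouts and 9.42 to 14.8 CPM in controls, and the macrophage list, also with none called, to 1939 to 2635 CPM in knockouts and 1085 to 1838 CPM in controls. In these 5 lists the summed level of each knockout was above that of each control. The same held for the endothelial list, at 75.3 to 83.0 CPM in knockouts and 54.2 to 70.2 CPM in controls. The groups overlapped in the erythroid list, at 6.80 to 8.75 CPM in knockouts and 4.86 to 24.9 CPM in controls. Its median log2 fold change was -0.14. The oocyte and sensory receptor lists overlapped too. For single genes on the TMM scale, an unlike measure, each knockout was above each control in 16.8% of genes tested. Single genes carried part of the difference in the list sums. Leaving out the gene with the most reads, an alternative chosen after seeing the data, gave overlapping groups in the Sertoli list without Clu, at 34.6 to 40.9 CPM in knockouts and 28.1 to 41.0 CPM in controls. The macrophage list without Lyz2 also overlapped, at 885 to 1066 CPM in knockouts and 707 to 973 CPM in controls, as did the B lymphocyte list without Cd79b, at 5.76 to 10.2 CPM in knockouts and 2.36 to 5.89 CPM in controls. The endothelial list without Egfl7 overlapped too, at 50.5 to 65.5 CPM in knockouts and 35.9 to 51.6 CPM in controls. The T lymphocyte list without Cd3g stayed apart, at 48.7 to 59.5 CPM in knockouts and 22.5 to 42.2 CPM in controls. The myoid list without Acta2 stayed apart by a narrow margin, at 24.5 to 24.8 CPM in knockouts and 8.79 to 24.2 CPM in controls. The part of such cells in the reads of the 56 genes was not tested.

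**Figure D5:**
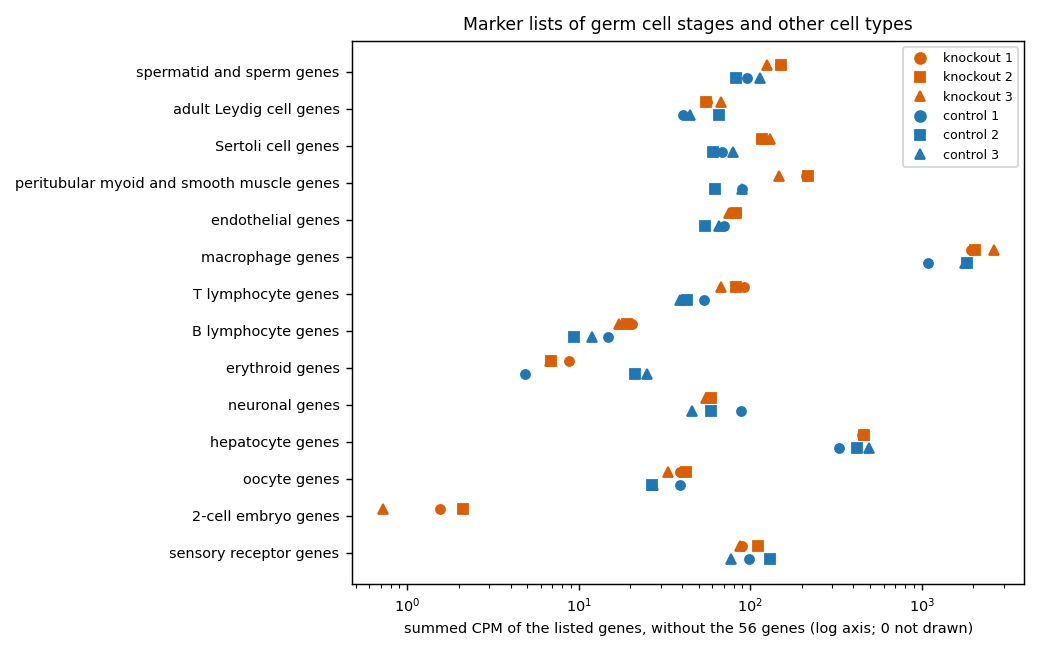
Summed CPM (x axis, log scale) of 14 lists of cell type and stage genes, without the 56 genes, in each knockout and control library, with a marker shape for each replicate. The knockouts lie above the controls in the T lymphocyte and myoid lists, the latter by a narrow margin once Acta2 is left out. They also lie above in the spermatid, endothelial, B lymphocyte, macrophage and Sertoli lists. In those lists the groups overlap once the gene with the most reads is left out. The groups overlap in the Leydig, hepatocyte, neuronal, erythroid, oocyte and sensory receptor lists. Of these, the Leydig and neuronal lists do not overlap once that gene is left out. The controls had no read of the 2-cell embryo list and are not drawn there.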

How the data were processed

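RNA was measured by SMART-seq2 in 3 Ddx20 knockout and 3 control libraries of THY1+ spermatogonia, sequenced as paired reads of 150 bases, and sample groups were taken from the genotype labels. The authors deposited whole read counts per Ensembl gene. The deposited table also holds a sum column and a mean column, a signal-type value, and neither of these 2 columns was used. The submitters' processing notes name the build mm10, STAR 2.7.5c, Trimmomatic 0.39, edgeR, DESeq2 and StringTie 2.1.7, without roles. Not given in the sources used here are the counter, annotation release, strand setting and row filter.

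Symbols, positions and exon lengths came from GENCODE M21, which matched 22562 of 22579 genes. The members, tissue groups and marker lists were chosen with earlier results of these data known. The test over all genes was edgeR 4.0.16 (R 4.3.3, limma 3.58.1): filterByExpr, TMM, robust quasi-likelihood F test with genotype as sole term, and a Benjamini-Hochberg adjusted p under 0.05, two-sided. It was tested on simulated data, with changes placed only in genes more abundant in the controls than any of the 56. That trial does not cover counts as low as theirs. CPM of the 56 genes and lists, RPKM, ratios and floors are relative to total counts, and other CPM are TMM-scaled. Ratios carry exact conditional 95% intervals (scipy 1.17.1), and a lower bound is set against 3 counts summed over the controls. Genes named were Ddx20, Crisp2, Sult1e1, the protein-coding members with an approved-type symbol, at most 40 by mean CPM, and up to 3 genes on each side of each limit. Any other gene was named after its values were seen, also where the text does not mark it, as for genes of the marker lists. Alternatives were other limits, equal depth, each library left out, knockout 1 and 2 as 1 library, DESeq2 1.42.0, limma-voom, other scalings and filters, and a replicate block. Leaving the gene with the most reads out of each list sum was added after seeing the data. Depth was 8428871 to 12497967 reads per library.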

Additional observations from a re-analysis of the deposited data

How the results depend on the processing

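The count of 56 genes moved with the limits. It was 26 with no control read allowed, 154 with up to 10, 187 with at least 5 knockout reads and 12 with at least 20. It was 66 to 212 with 1 library left out, at 212 without knockout 3, 107 without control 1, 149 without control 2 and 136 without control 3. The exchanged rule, at 0, gave 13 with up to 10 reads allowed, 13 with at least 5 reads, 3 at equal depth, 4 with knockout 1 and 2 as 1 library and 3 to 22 with 1 library left out. The cause was not tested, except that fewer libraries make either rule easier to pass.

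Over all genes edgeR called 713 (300 higher, 413 lower). With library size alone it called 1378 (226 higher, 1152 lower), and the median over all genes then lay at -0.26 (log2). DESeq2 called 1587 (800 higher, 787 lower). With knockout 1 and 2 as 1 library edgeR called 1 gene higher, Cln3 with an adjusted p of 0.0308, and 0 lower, with 2153 genes at an unadjusted p under 0.05. Leaving out 1 library gave 3 to 839 calls, 2 to 414 higher and 1 to 468 lower, with 5 without knockout 1, 10 without knockout 2, 3 without knockout 3 and 182 without control 2. Of the 35 members called higher, leaving out 1 library gave 0 to 23, with 23, 6 and 21 without control 1, 2 and 3, and the pair as 1 library gave 0. With the replicate number as a block 13 members and 683 genes were called. Correlations of deviations were 9e-04, 0.0116 and 0.0165 for equal replicate numbers and -0.0255 to 0.0132 for unequal ones. Whether equal numbers are pairs cannot be told from these values. Of 555 alternative log2 fold changes of 37 named members, 186 fell short of the threshold that the main value passed. None changed sign, but the rule that chose the members fixed their sign in advance, so nothing is read from that. Depth limits single values, since 32 of the 56 genes stayed under 30 reads in every library.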
